A study of Danio rerio with 12 samples.

Results

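The comparison described here is between injured heart tissue of myd88-/- zebrafish at 24 and at 1 hours post cryoinjury (hpci). It comprised 4 of the 12 bulk messenger RNA libraries of the series, chosen by genotype, tissue and time in the sample labels, with 2 biological replicates at each time. The other 8 libraries were 2 each of untouched (UT) myd88-/- ventricles, UT myd88+/+ ventricles, and myd88+/+ injured tissues at 1 and 24 hpci. All fish were adults of the AB strain, the myd88-/- fish carried a loss-of-function allele in every cell, and the myd88+/+ fish were their wild-type siblings. The injury was made by holding a probe cooled in liquid nitrogen to the apex of the ventricle. For each library 3 ventricles or 3 injured tissues were pooled, and the spread between replicates was therefore a spread between pools.

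MyD88 is the adaptor through which most Toll-like receptors and the interleukin-1 receptors pass their signal on to NF-kB and the MAP kinases. Tissue killed by cold releases molecules that these receptors bind. In the zebrafish heart the first hours after an injury bring immediate-early transcription in surviving cells, and the first day brings leukocytes, the clearing of debris and a provisional matrix in which regeneration later takes place. All 4 libraries compared here lacked functional MyD88, so the comparison follows the tissue over time without this adaptor, and the same change in myd88+/+ tissue is given only to show where the mutant change differed.

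Values are normalized counts, that is, reads on the exons of a gene divided by a size factor of the library and rounded. The normalized totals were 3442398 and 3464962 at 1 hpci (replicates 1 and 2, the order kept throughout) and 2998272 and 2998177 at 24 hpci. From the spacing of the low values in each library, 1 read was estimated to stand for 0.73 to 0.94 normalized counts, which put the depth of the 4 libraries between 3684170 and 4121336 reads. Replicate 1 of myd88+/+ at 24 hpci stood apart, with an estimated 1476710 reads and 7.61 normalized counts for 3 reads. That library enters the mutant comparison through the spread that all 6 conditions share and through the filter on the mean of all libraries. Where both libraries of a time were at 0, 3 reads (2.75 normalized counts at 1 hpci, 2.24 at 24 hpci, as the mean of the libraries) were taken as the floor. Intervals and floors cover counting error only.

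Markers of heart tissue were present in all 4 libraries. The summed level of 9 cardiomyocyte genes was 14366 and 13516 normalized counts at 1 hpci and 8078 and 6669 at 24 hpci, and that of 10 macrophage genes was 1168 and 1087 against 3951 and 4492. Neutrophil markers summed to 1659 and 1535 against 2294 and 2800, red blood cell markers to 5441 and 6695 against 2933 and 3346, and thrombocyte markers to 5848 and 5880 against 2756 and 3134. In each of these sums the times did not overlap. By the calls described below, 2 of the 9 cardiomyocyte genes, ryr2b and ttn.2, were lower and 0 higher. Of the macrophage genes 9 were higher and 1 lower, and of 10 neutrophil genes 3 were higher and 0 lower. Of 8 red blood cell genes 2 were lower and 0 higher, and of 5 thrombocyte genes 4 were lower and 1 higher. Over all genes tested 16.3% were lower and 18.1% higher. In bulk tissue fewer cells of a type and less RNA per cell cannot be told apart, so every level below is a level in the tissue. Fast skeletal muscle markers summed to 1298 and 1344 against 808 and 763, with tnnt3a and myhz1.1 at 0 in all 4 libraries. The mutated gene was still transcribed. Its message had 32 and 37 normalized counts in UT ventricles, then 199 and 210 at 1 hpci and 43 and 66 at 24 hpci, a log2 change of -1.92 (standard error, SE, 0.28, limma adjusted p = 0.000601). Expression of myd88 (chromosome 24, 20188914 to 20192996 of danRer11) therefore says nothing about the protein.

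Of 16643 genes tested, 5715 (34.3%) changed between 1 and 24 hpci in myd88-/- tissue. The message of 3005 genes (18.1%) rose and that of 2710 (16.3%) fell. A gene was called when its limma p, adjusted by the Benjamini-Hochberg method, was below 0.05 and its change exceeded 1.5-fold, the log2 change being the difference of the mean log2(normalized count + 1), which understates the change of genes with few reads. The median log2 change over all genes tested was -0.03, and 7513 genes had an unadjusted p below 0.05. An exact permutation test of 2 libraries against 2 cannot reach p = 0.05, so the calls rest on the spread shared by the 6 conditions in a single model. Both 24 hpci libraries lay above both 1 hpci libraries in 36.2% of the genes tested and below both in 37.1%. Without replicate 2 of the mutant tissue at 24 hpci the count of calls was 2848, and without replicate 1 at 1 hpci it was 3806.

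The largest rises were in genes that were nearly silent at 1 hpci. The genes named in this paragraph had to have replicates that did not overlap between the times. Clcf1, a cytokine of the interleukin-6 family (chromosome 14, 22022441 to 22038396), had no reads in either library at 1 hpci and 223 and 229 normalized counts at 24 hpci, at least 82.3-fold higher (log2 change 7.83, SE 0.60, limma adjusted p = 3.23e-05). It was also at 0 and 1 in UT ventricles, so the level at 24 hpci exceeded both the earlier injured tissue and the untouched heart. The guanine deaminase gene gda (chromosome 5, 25708369 to 25723079) had 3 and 2 against 546 and 608, a 231-fold higher mean (log2 change 7.38, SE 0.37, limma adjusted p = 9.28e-06). The tetraspanin gene cd9b had 5 and 6 against 683 and 776 (log2 change 6.81, SE 0.50). Fap, the serine protease known as fibroblast activation protein, had 2 and 4 against 314 and 401 (log2 change 6.52, SE 0.66), and adamtsl7, which encodes a secreted ADAMTS-like protein, 3 and 1 against 284 and 351 (log2 change 6.81, SE 0.61). Each of these genes was scarce in UT ventricles too.

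Several further rises began from single reads, where a ratio is wide. Mitfa, the transcription factor of pigment cells, had 1 and 0 normalized counts at 1 hpci and 156 and 189 at 24 hpci, a ratio of 376 with a 95% counting interval of 67.1 to 14900. The type XI collagen chain col11a1a had 1 and 0 against 168 and 150 (ratio 349, interval 62.2 to 13800). Ptx3a, a pentraxin of the kind that binds microbes and dying cells, had 2 and 1 against 295 and 196 (ratio 180, interval 61.3 to 875). Unlike the others, ptx3a was well expressed in UT ventricles, at 97 and 181, so its low point was at 1 hpci. Dicp2.1, an immunoglobulin-domain receptor, and tmem163a, a zinc transporter, were at 0 in both libraries at 1 hpci and reached 123 and 176 and 155 and 115, at least 54.4-fold and 49.2-fold higher. Prom2, a membrane glycoprotein, had 0 and 2 against 191 and 206, and stra6l, a receptor for retinol-binding protein, 2 and 0 against 150 and 195. The log2 change of prom2 was 6.05 without replicate 1 at 1 hpci and 7.64 without replicate 2, and that of stra6l 7.43 and 5.84.

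The 3 largest falls were in genes of autophagy, glycogen metabolism and creatine synthesis. Map1lc3cl, a member of the LC3 family that coats autophagosomes (chromosome 14, 45406299 to 45422778), had 473 and 455 normalized counts at 1 hpci and 8 and 1 at 24 hpci, a log2 change of -6.78 (SE 0.68, limma adjusted p = 9.96e-05). Ppp1r3aa, a glycogen-targeting subunit of protein phosphatase 1 (chromosome 4, 6572364 to 6580610), had 1485 and 1400 against 38 and 5 (log2 change -6.56, SE 0.68). Gatm, the enzyme of the first step of creatine synthesis (chromosome 18, 35725 to 46010), had 435 and 617 against 15 and 2 (log2 change -6.23, SE 0.79). In all 3 genes the UT level lay between those of the times, with 39 and 26 for map1lc3cl, 296 and 127 for ppp1r3aa and 97 and 111 for gatm. Their 24 hpci replicates differed severalfold: without replicate 2 the log2 changes were -5.69, -5.21 and -5.02, and without replicate 1 -7.86, -7.91 and -7.43. A second glycogen-targeting subunit, PPP1R3G, had 117 and 91 against 3 and 1 (log2 change -5.20), and the synaptotagmin gene syt5a 50 and 71 against 0 and 2, a 53.5-fold lower level (interval 17.9 to 263). Tph1a, a tryptophan hydroxylase of serotonin synthesis, had 53 and 26 against 0 and 0, at least 17.6-fold lower, and ptgdsb.2, a prostaglandin D synthase gene, 34 and 28 against 0 and 0, at least 13.8-fold lower.

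The AP-1 gene fosb, also among the largest falls, is described with the immediate-early genes. Krt5, an epidermal type of keratin, had 37 and 116 against 1 and 0 (ratio 202, interval 35.8 to 8030), and its call was lost without replicate 2 at 1 hpci (limma adjusted p = 0.0996) and without replicate 2 at 24 hpci (0.0907). Zc2hc1c, a zinc finger gene, had 23 and 71 against 1 and 0 (ratio 124, interval 21.7 to 4930). The deubiquitinase gene cyldb had 40 and 68 against 3 and 0, with a log2 change of -3.73 without replicate 2 at 24 hpci and -5.73 without replicate 1. Asb14b, an ankyrin repeat and SOCS box gene, had 82 and 69 against 2 and 2 (log2 change -4.67, SE 0.68).

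**Figure D1:**
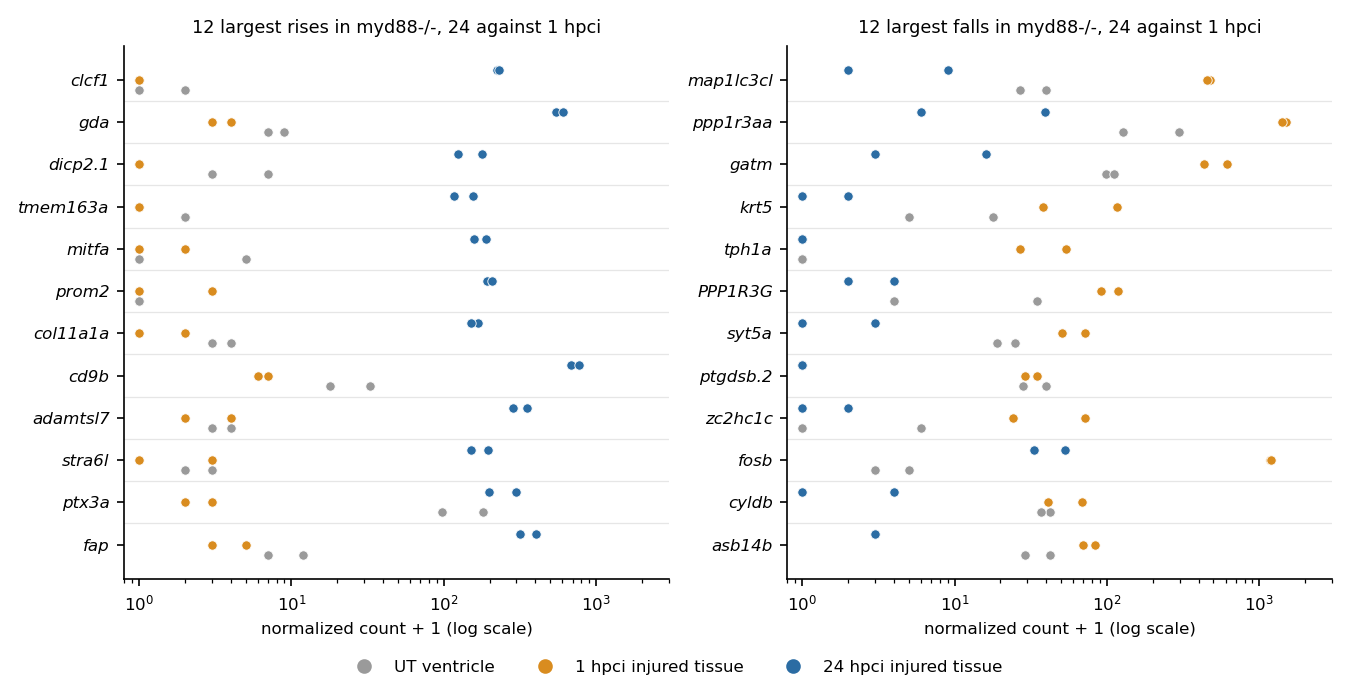
Normalized counts plus 1 on a log axis for the 12 genes with the largest rise (left) and the 12 with the largest fall (right) in myd88-/- injured tissue between 1 and 24 hpci, with UT ventricles beside them; each point is a library. The 24 hpci points of clcf1 sit at 223 and 229 while its 1 hpci points are at 0, and the 24 hpci replicates of ppp1r3aa are spread from 5 to 38 while its 1 hpci replicates are at 1485 and 1400.

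By normalized count rather than fold, the largest gains and losses were in other genes. The fibronectin gene fn1a (chromosome 9, 15362300 to 15424639) gained most, with 231 and 124 against 3286 and 2955 (log2 change 4.19, SE 0.60, limma adjusted p = 0.000564). The large proteoglycan versican, vcanb, had 71 and 52 against 2106 and 2047 (log2 change 5.07, SE 0.42). Both had been lower at 1 hpci than in UT ventricles, which held 721 and 635 of fn1a and 213 and 242 of vcanb. The progranulin gene grna had 143 and 100 against 1401 and 1549 (log2 change 3.61), the mannose receptor mrc1b 291 and 237 against 1716 and 1467 (2.59), and the leukocyte metalloprotease adam8a 300 and 356 against 1395 and 1642 (2.2). The other gains by this measure were in the ferlin gene myofl, with 37 and 29 against 1323 and 1167 (5.20), the unconventional myosin myo1f, with 91 and 70 against 976 and 1066 (3.66), and the amino acid transporter slc43a2b, with 138 and 78 against 1074 and 1280 (3.49).

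Among the losses, the M-band protein myom1b had 3485 and 2871 normalized counts at 1 hpci against 1527 and 770 at 24 hpci (log2 change -1.54, SE 0.28), and the ryanodine receptor ryr2b, through which calcium leaves the sarcoplasmic reticulum, 2574 and 2214 against 824 and 357 (-2.14, SE 0.34). Without replicate 2 at 24 hpci the change of ryr2b was -1.53. Nhsl1a, a regulator of the actin cytoskeleton, had 2317 and 2196 against 663 and 427 (-2.08, SE 0.22). The other fibronectin gene, fn1b, went the opposite way to fn1a, with 3750 and 3206 against 1950 and 1076 (log2 change -1.26), although its call was lost without replicate 1 at 1 hpci (limma adjusted p = 0.063) and without replicate 2 at 24 hpci (0.089). The titin genes ttn.1, with 3748 and 3154 against 1909 and 1388, and ttn.2, with 4324 and 3582 against 2436 and 1810, and the cardiac myosin heavy chain myh7l, with 4950 and 4767 against 3099 and 2465, were called at changes of -1.08, -0.91 and -0.81. These 3 calls were lost under quantile normalization. Without replicate 1 at 1 hpci or replicate 2 at 24 hpci the limma adjusted p was 0.101 and 0.114 for ttn.2, and that of myh7l was between 0.070 and 0.235 without any 1 of the 4 libraries.

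Gene lists with a common role are described by how many of their tested members were called in each direction, to be read against 18.1% higher and 16.3% lower over all genes, and by the median log2 change of the members. The lists were not tested as groups. Where members with a mean above that of UT ventricles are counted, the share over all genes tested was not computed. By share of tested members, the cell cycle, macrophage and ribosome biogenesis lists had the most called higher, and the immediate-early, fatty acid and hypoxia lists the most called lower. Counts of calls depended on the number of libraries. Many that moved by more than 1.5 times are followed by those found with 1 of the 4 libraries left out. Their order is 1 hpci replicates 1 and 2, then 24 hpci replicates 1 and 2. A count without such figures may also have moved.

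**Figure D2:**
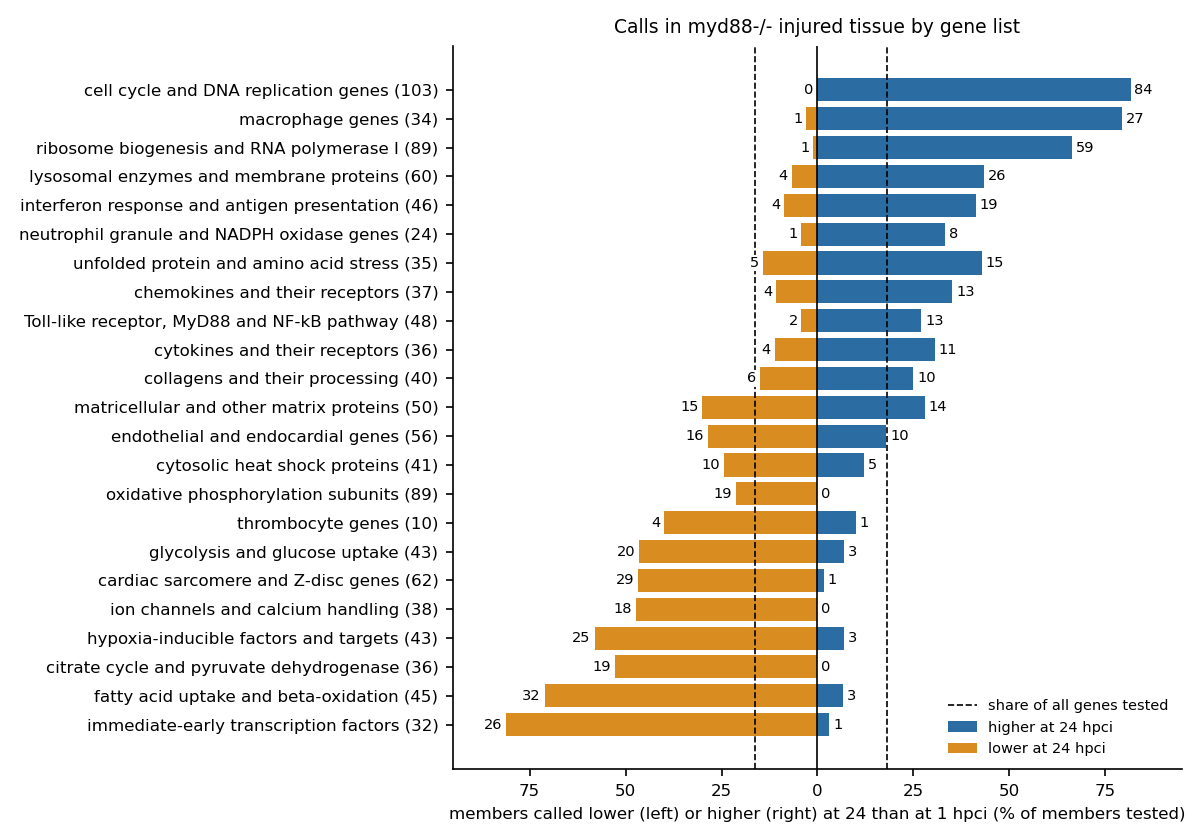
Share of the tested members of 23 gene lists called higher (blue, right) or lower (orange, left) at 24 than at 1 hpci in myd88-/- injured tissue, with the number of called members at each bar, the number tested in parentheses, and dashed lines at the share of all genes tested. Cell cycle genes, with 84 of 103 higher and 0 lower, are at one end and immediate-early transcription factors, with 26 of 32 lower and 1 higher, at the other.

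Immediate-early transcription factors fell together. They are genes switched on within minutes of stress, before new protein is made. Of 32 tested, 26 were lower at 24 hpci and 1 was higher, with a median log2 change of -1.34, and 23, 17, 20 and 20 were lower without 1 library. Fosb, an AP-1 subunit, had 4 and 2 normalized counts in UT ventricles, then 1183 and 1192 at 1 hpci and 52 and 32 at 24 hpci (log2 change -4.83, SE 0.52, limma adjusted p = 0.000135). The AP-1 genes fosl1a, with 1649 and 2015 against 509 and 450 (-1.93), and jund, with 1924 and 1862 against 575 and 453 (-1.89), fell less. The mean at 24 hpci was still above the UT mean in 27 of the 32 members, against 31 at 1 hpci. Klf4 was an exception, since its 121 and 119 normalized counts at 1 hpci fell to 7 and 8 (log2 change -3.83), below its UT values of 76 and 53.

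The zinc finger gene egr1 had 1992 and 2040 normalized counts at 1 hpci against 756 and 851 at 24 hpci (log2 change -1.33), and its relative egr2a 243 and 291 against 41 and 45 (-2.60). The nuclear receptors nr4a1, with 2328 and 2487 against 862 and 907 (-1.44), and nr4a3 (-2.01) fell as well, as did the stress factors atf3 (-1.35) and csrnp1a, with 831 and 809 against 167 and 169 (-2.28). The member that went the other way was egr2b, at 26 and 50 against 100 and 161 (log2 change 1.79), and its call was lost without replicate 1 at 1 hpci (limma adjusted p = 0.144) and without replicate 2 at 24 hpci (0.156). Of 15 feedback inhibitors of the MAP kinases, 5 were lower by limma and 0 higher, with 2 members higher at an unadjusted p below 0.05, and the counts of lower members without 1 library were 3, 4, 2 and 3. The gene spry4, a Sprouty inhibitor of receptor signalling, had 1300 and 1390 against 548 and 588 (log2 change -1.24).

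Heat shock genes were called lower in 24.4% and higher in 12.2%, against 16.3% and 18.1% of all genes tested. These chaperones of the cytosol are induced when proteins lose their fold. Of 41 tested, 10 fell and 5 rose (lower 7, 6, 9 and 6, higher 3, 3, 3 and 2 without 1 library), with a median log2 change of -0.32. The sign of that median was not stable, at -0.06 under quantile normalization and 0.07 without replicate 2 at 1 hpci. The gene hsp70l had 14 and 14 normalized counts in UT ventricles, then 489 and 552 at 1 hpci and 62 and 72 at 24 hpci (log2 change -2.94, SE 0.35, limma adjusted p = 0.000233), and hsp70.2 changed by -1.96, although these genes have close copies and reads that aligned to several places had been removed. The co-chaperone bag3 had 1149 and 1373 against 417 and 381 (log2 change -1.65). The levels of all 3 at 24 hpci lay below both 1 hpci libraries, as did those of 37.1% of all genes tested. In the endoplasmic reticulum the unfolded protein list held 15 higher and 5 lower of 35. The gene hyou1, a chaperone of that compartment, had 330 and 361 against 931 and 967 (log2 change 1.46), creld2 23 and 40 against 179 and 206 (2.62) and the calreticulin gene calr3b 276 and 239 against 659 and 647 (1.34). The lower members included the stress-response genes trib3, with 911 and 985 against 399 and 386 (-1.27), and ddit3, with 489 and 464 against 233 and 218 (-1.08).

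Hypoxia and fuel genes called lower outnumbered those called higher. Of 43 hypoxia-inducible factors and targets, 25 fell and 3 rose (higher 0, 2, 0 and 0 without 1 library), with a median of -1.23. The gene igfbp1a, which binds insulin-like growth factors, had 69 and 50 normalized counts in UT ventricles, then 888 and 1162 at 1 hpci and 164 and 172 at 24 hpci (log2 change -2.59, SE 0.20, limma adjusted p = 3.28e-05). The vessel growth factor vegfab had 1638 and 1794 against 498 and 327 (log2 change -2.08, SE 0.22), and its UT values of 1050 and 1074 lay between. The red cell hormone epoa had 786 and 853 against 211 and 165 (-2.13), and egln3, an oxygen sensor that marks the hypoxia-inducible factors for decay, 597 and 762 against 134 and 140 (-2.29). Both 24 hpci libraries lay below both 1 hpci libraries in each of these genes, as in 37.1% of all genes tested.

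Of 43 glycolysis and glucose uptake genes, 20 fell and 3 rose. The glucose transporter slc2a1a had 521 and 361 normalized counts at 1 hpci against 40 and 8 at 24 hpci (log2 change -4.50, SE 0.525). Without replicate 2 at 24 hpci its change was -3.41, and without replicate 1 -5.59. The lactate transporter slc16a1a had 247 and 230 against 17 and 14 (-3.86), and the phosphofructokinase gene pfklb, of the committed step of glycolysis, 269 and 242 against 40 and 21 (-3.09). The 3 genes that rose were other forms of pathway enzymes, the hexokinase hk2, with 157 and 125 against 867 and 993 (2.72), and the enolases eno2, with 4 and 9 against 129 and 176 (4.42), and eno1b, with 63 and 100 against 327 and 430 (2.23).

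Fatty acid uptake and oxidation, the main fuel supply of the working heart, had 32 of 45 members lower and 3 higher (lower 16, 17, 22 and 11, higher 2, 1, 1 and 1 without 1 library). The median was -0.85, and 34 members lay below both 1 hpci libraries at 24 hpci, as did 37.1% of all genes tested. The acyl-CoA synthetase acsl1a had 1112 and 1145 against 270 and 260 (log2 change -2.09), the mitochondrial carnitine transferase cpt1ab 1590 and 1625 against 720 and 572 (-1.32), and the nuclear receptor esrra, a regulator of these genes, 434 and 525 against 112 and 76 (-2.36). The uncoupling protein ucp3 had 724 and 630 against 97 and 87 (-2.86). The gene plin2, which coats lipid droplets, was the reverse, with 9 and 6 normalized counts at 1 hpci and 567 and 615 at 24 hpci (log2 change 6.14, SE 0.67, limma adjusted p = 0.000145), far above its UT values of 37 and 11.

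Mitochondrial lists were lower, with counts of calls that depended on the libraries. In the citrate cycle list 19 of 36 fell and 0 rose, with a median of -0.76, but only 4, 7, 10 and 3 fell without 1 library. The gene ogdha, a subunit of the oxoglutarate dehydrogenase, had 2738 and 2567 against 1453 and 1237 (log2 change -0.98, and -0.50 and not called under quantile normalization), and pdk2b, the kinase that turns off pyruvate dehydrogenase, 1541 and 1396 against 610 and 481 (-1.44). Of 89 subunits of oxidative phosphorylation 19 were called lower and 0 higher by limma, with 0 higher at an unadjusted p below 0.05, while 87 of the 89 lay below both 1 hpci libraries. The called count was 1, 3, 4 and 1 without 1 library and 71 when only the 4 libraries were fitted. The gene ndufv3, a subunit of complex I, had 468 and 486 against 230 and 213 (-1.10). In cytosolic ribosomal proteins the median was -0.40, and 78 of 79 members lay below both 1 hpci libraries, against the same 37.1%. Yet 0 were called in either direction by limma, and 2 had an unadjusted p below 0.05. Beside these differences stand the lower normalized totals at 24 hpci and the scaling: under quantile normalization the medians were -0.60 for oxidative phosphorylation and -0.22 for ribosomal proteins, and under trimmed mean scaling -0.74 and -0.42. Duplicate reads had also been removed, which caps short abundant genes. The part of the totals and of duplicate removal in these differences was not tested.

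Among muscle genes, calls were nearly all lower at 24 hpci. The sum of the cardiomyocyte markers given above was lower too, with 2 of 9 markers called lower, and its part in these results was not tested. The markers in that sum are themselves muscle genes. Of 62 genes of the cardiac sarcomere and its Z-disc, 29 fell and 1 rose (lower 17, 23, 26 and 15 without 1 library), with a median of -0.89. The atrial myosin heavy chain gene myh6 had 1276 and 913 normalized counts in UT ventricles, then 117 and 88 at 1 hpci and 7 and 2 at 24 hpci (log2 change -4.39, and -3.68 without replicate 2 at 24 hpci). The Z-disc gene myoz2a had 268 and 281 against 49 and 58 (-2.34), and tmod1, which caps thin filaments, 485 and 361 against 215 and 143. Ion channels and calcium handling had 18 of 38 members lower and 0 higher (lower 12, 11, 16 and 11 without 1 library), with 1 higher at an unadjusted limma p below 0.05. The sodium pump subunit atp1b1b had 582 and 612 against 55 and 71 (log2 change -3.23, SE 0.24, limma adjusted p = 2.85e-05), the calcium-dependent kinase camk2d2 601 and 496 against 151 and 81 (-2.29), and triadin, trdn, which anchors the calcium release complex, 506 and 481 against 156 and 102 (-1.96). The sodium-calcium exchanger slc8a1a (-1.34) and the dyad protein jph2, with 643 and 514 against 238 and 141, belonged to the same group.

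Most thrombocyte and red blood cell genes were higher at 1 hpci than in UT ventricles. Thrombocytes are the fish counterpart of platelets. The thrombopoietin receptor mpl had 33 and 44 normalized counts in UT ventricles, then 773 and 666 at 1 hpci and 101 and 64 at 24 hpci (log2 change -3.14, SE 0.37, limma adjusted p = 0.000218), and the fibrinogen receptor subunit itga2b 77 and 106, 1357 and 1495, and 371 and 376 (-1.93). Of 10 thrombocyte genes 4 fell and 1 rose, and at both times all 10 had a mean above that of UT ventricles. In the red blood cell list 8 of 20 fell and 2 rose (lower 6, 4, 7 and 6, higher 2, 2, 2 and 1 without 1 library). The anion exchanger slc4a1a had 481 and 658 in UT ventricles against 1884 and 2463 at 1 hpci and 655 and 771 at 24 hpci (-1.60).

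Macrophage genes rose almost as a block. Of 34 tested, 27 rose and 1 fell, with a median log2 change of 2.57, and 23 to 26 rose when a library was left out. The pore-forming protein gene mpeg1.1 had 146 and 199 normalized counts in UT ventricles, then 71 and 61 at 1 hpci and 525 and 675 at 24 hpci (log2 change 3.16, SE 0.28, limma adjusted p = 5.19e-05). The growth factor receptor csf1ra, on which macrophages depend, had 65 and 35 against 506 and 404 (3.22), the scavenger receptor marco 111 and 115 against 670 and 839 (2.72), and mfap4 15 and 14 against 118 and 146 (3.09). The myeloid transcription factor spi1b had 101 and 87 against 651 and 775 (2.91). In each of these genes both 24 hpci libraries were above both 1 hpci libraries, as in 36.2% of all genes tested. The member called lower, cd74a, the invariant chain of antigen presentation, had 501 and 446 against 271 and 246 (log2 change -0.87), and its call was lost without any 1 of the 4 libraries (limma adjusted p between 0.053 and 0.109).

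Genes by which phagocytes take up and digest debris and lipid were among the largest of these rises. The gene havcr1, a receptor for phosphatidylserine on dying cells, had 24 and 33 normalized counts at 1 hpci against 563 and 676 at 24 hpci (log2 change 4.41, SE 0.36). The apolipoprotein genes apoc1, with 3 and 3 against 161 and 178 (5.41), and apoeb, with 15 and 59 against 599 and 702 (4.39, and 3.44 without replicate 1 at 1 hpci), rose with it, as did the granulin gene grn2, with 2 and 5 against 219 and 259 (5.82), and the amino acid transporter slc7a7, with 36 and 55 against 824 and 1017 (4.33). Of 60 lysosomal genes 26 rose and 4 fell (higher 18, 23, 21 and 16 without 1 library). The proton pump subunit atp6v1ab had 54 and 79 against 682 and 844 (log2 change 3.52, SE 0.24), the membrane glycoprotein gpnmb 4 and 7 against 106 and 126 (4.2), the hexosaminidase hexa 52 and 72 against 237 and 287 (2.07) and the cathepsin ctsz 218 and 274 against 720 and 818 (1.65). The gene tfeb, the transcription factor that drives lysosomal genes, had 637 and 489 against 242 and 210 (-1.30). The rise of these lists stood beside that of the macrophage marker sum, whose part in it was not tested. Markers in that sum, among them mpeg1.1, csf1ra, marco and mfap4, are also members of the macrophage list.

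Neutrophil genes did not move as one. Of 24 granule and NADPH oxidase genes 8 rose and 1 fell, the latter, padi2, losing its call without 3 of the 4 libraries (limma adjusted p between 0.105 and 0.218). The oxidase subunit ncf4, with 22 and 21 normalized counts at 1 hpci against 213 and 252 at 24 hpci (log2 change 3.37), and its GTPase partner rac2, with 73 and 78 against 442 and 512 (2.64), are used by macrophages as well. Of 10 neutrophil markers 3 were called higher and 0 lower by limma, and their sum, given above, was higher at 24 hpci without overlap. Some granule genes were not called. The myeloperoxidase gene mpx had 58 and 32 in UT ventricles, then 166 and 108 at 1 hpci and 155 and 236 at 24 hpci (log2 change 0.51, SE 0.78, limma adjusted p = 0.646), and its times overlapped. The gene mmp9, a gelatinase, had 329 and 388 against 311 and 333 (-0.15, limma adjusted p = 0.842), the granule protease npsn 161 and 132 against 68 and 110 (-0.75, 0.232), and lysozyme, lyz, 12 and 7 against 2 and 3 (-1.56, 0.106). The chemokine cxcl18b, which attracts neutrophils in zebrafish, had 195 and 233 against 116 and 157 (log2 change -0.66, SE 0.42, limma adjusted p = 0.252). Among the lymphocyte genes, 13 of which passed the filter, 4 rose and 1 fell (higher 3, 1, 2 and 1 without 1 library), led by blnk, an adaptor of the B cell receptor that other leukocytes also use, at 12 and 17 against 392 and 423 (4.74).

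Receptors of cytokines, chemokines and microbial products were among the genes that rose. Of 36 cytokine and receptor genes tested 11 rose and 4 fell (lower 3, 3, 2 and 2 without 1 library), of 37 chemokine genes 13 rose and 4 fell (higher 10, 9, 10 and 8, lower 2, 4, 4 and 1), and of 48 genes of the Toll-like receptor, MyD88 and NF-kB pathway 13 rose and 2 fell (higher 11, 9, 9 and 7). The gene il21r.1 had 44 and 76 normalized counts at 1 hpci against 629 and 769 at 24 hpci (log2 change 3.56), csf2rb, the shared chain of colony-stimulating factor receptors, 61 and 72 against 501 and 568 (2.99), and the chemokine receptor ccr12a 18 and 15 against 217 and 246 (3.73). Among the ligands, il34, which binds the macrophage receptor csf1r, had 44 and 64 against 211 and 262 (2.13) and m17, a cytokine of the interleukin-6 family, 2 and 8 against 100 and 148 (4.56, and 3.77 without replicate 1 at 1 hpci). Interleukin-1 beta, il1b, had 37 and 52 against 51 and 88 with overlapping times (log2 change 0.60, limma adjusted p = 0.525). The tumour necrosis factor gene tnfb had 14 and 13 against 105 and 155 (3.15), while tnfa was at 0 in both libraries at 1 hpci and at 8 and 8 at 24 hpci, at least 2.91-fold higher. The gene il13ra1, a receptor chain for interleukin-13, fell from 734 and 827 to 292 and 361 (-1.26).

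Within the MyD88 pathway 2 Toll-like receptor genes rose. The nucleic acid receptor tlr8b had 10 and 8 normalized counts at 1 hpci against 236 and 245 at 24 hpci (log2 change 4.6, SE 0.34, limma adjusted p = 2.88e-05). The gene tlr22, a fish-specific receptor, had 16 and 6 against 142 and 161 (3.80, and 3.16 without replicate 2 at 1 hpci). The gene tirap, an adaptor that bridges receptors to MyD88, was at 0 in both libraries at 1 hpci and had 23 and 38 at 24 hpci, at least 11-fold higher. The kinases ripk2, with 14 and 24 against 114 and 151 (2.77), and map3k8, with 42 and 60 against 238 and 265 (2.30), rose also. In the interferon and antigen presentation list 19 of 46 rose and 4 fell (higher 15, 15, 14 and 8, lower 2, 1, 2 and 1 without 1 library). The antiviral GTPase mxa had 11 and 13 against 131 and 147 (log2 change 3.43, SE 0.29), gbp1 102 and 128 against 457 and 588 (2.17), gbp2 64 and 43 against 263 and 282 (2.35), and the immunoproteasome subunit psmb9a 16 and 19 against 84 and 119 (2.45). The interferon regulatory factor irf7 went the other way, at 191 and 255 against 104 and 93 (-1.16).

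Cell cycle genes rose in 1 direction. Of 103 tested, 84 rose and 0 fell by limma (higher 74, 47, 58 and 45 without 1 library), 0 were lower at an unadjusted p below 0.05, and the median log2 change was 2.35. All 103 had a mean at 24 hpci above that of UT ventricles, against 29 at 1 hpci. Among the helicase subunits of DNA replication, mcm6 was at 132 and 95 normalized counts in UT ventricles, then 6 and 11 at 1 hpci and 404 and 382 at 24 hpci (log2 change 5.43, SE 0.40, limma adjusted p = 2.85e-05) and mcm3 at 10 and 8 against 361 and 331 (5.12). The cell division cycle gene cdca7a had 1 and 3 against 120 and 138 (5.52, the largest change among the list's tested members), the cyclin ccne1, which opens S phase, 4 and 5 against 62 and 61 (3.51), and thymidylate synthase, tyms, 17 and 8 against 137 and 145 (3.48). Genes of mitosis also rose. The proliferation marker mki67 had 58 and 41 in UT ventricles, then 53 and 31 at 1 hpci and 288 and 234 at 24 hpci (2.65, SE 0.50), and the cyclin ccnb1 11 and 15 against 91 and 111 (2.87). For cdk1, the kinase of mitosis, the 1 hpci replicates were 41 and 4 against 123 and 144, and for top2a, a topoisomerase, 82 and 10 against 297 and 247. Replicate 1 at 1 hpci was the higher of the pair in both. Their log2 changes were 3.21 and 3.17, and 1.67 and 1.71 without replicate 2 at 1 hpci. With 1 library left out, both calls held only when that library was replicate 1 at 1 hpci.

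Genes that build ribosomes rose alongside, while proteasome subunits were called higher in 10.6%, against 18.1% of all genes tested. Of 89 genes of ribosome biogenesis and RNA polymerase I, 59 rose and 1 fell (higher 42, 54, 50 and 36 without 1 library), with a median of 0.90. The polymerase subunit polr1b had 20 and 34 normalized counts at 1 hpci against 204 and 225 at 24 hpci (log2 change 2.99). The gene dkc1, the pseudouridine synthase of ribosomal RNA, had 61 and 83 against 395 and 453 (2.55, SE 0.24, limma adjusted p = 6.49e-05), the GTPase bms1 80 and 65 against 378 and 384 (2.39) and rrp9 25 and 29 against 158 and 207 (2.7). At 1 hpci 19 of the 89 had a mean above UT ventricles, and at 24 hpci 83 did. The member that fell, emg1, a methyltransferase, had 180 and 444 against 116 and 124 (-1.23). Its change was -0.58 without replicate 2 at 1 hpci. With 1 library left out, its call held only when that library was replicate 1 at 1 hpci. Of 47 proteasome subunits 5 rose and 0 fell by limma, with 0 lower at an unadjusted p below 0.05 (higher 3, 3, 3 and 2 without 1 library), and the 5 included the immunoproteasome subunits psmb8a, with 83 and 57 against 225 and 289 (1.87), and psmb9a.

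**Figure D3:**
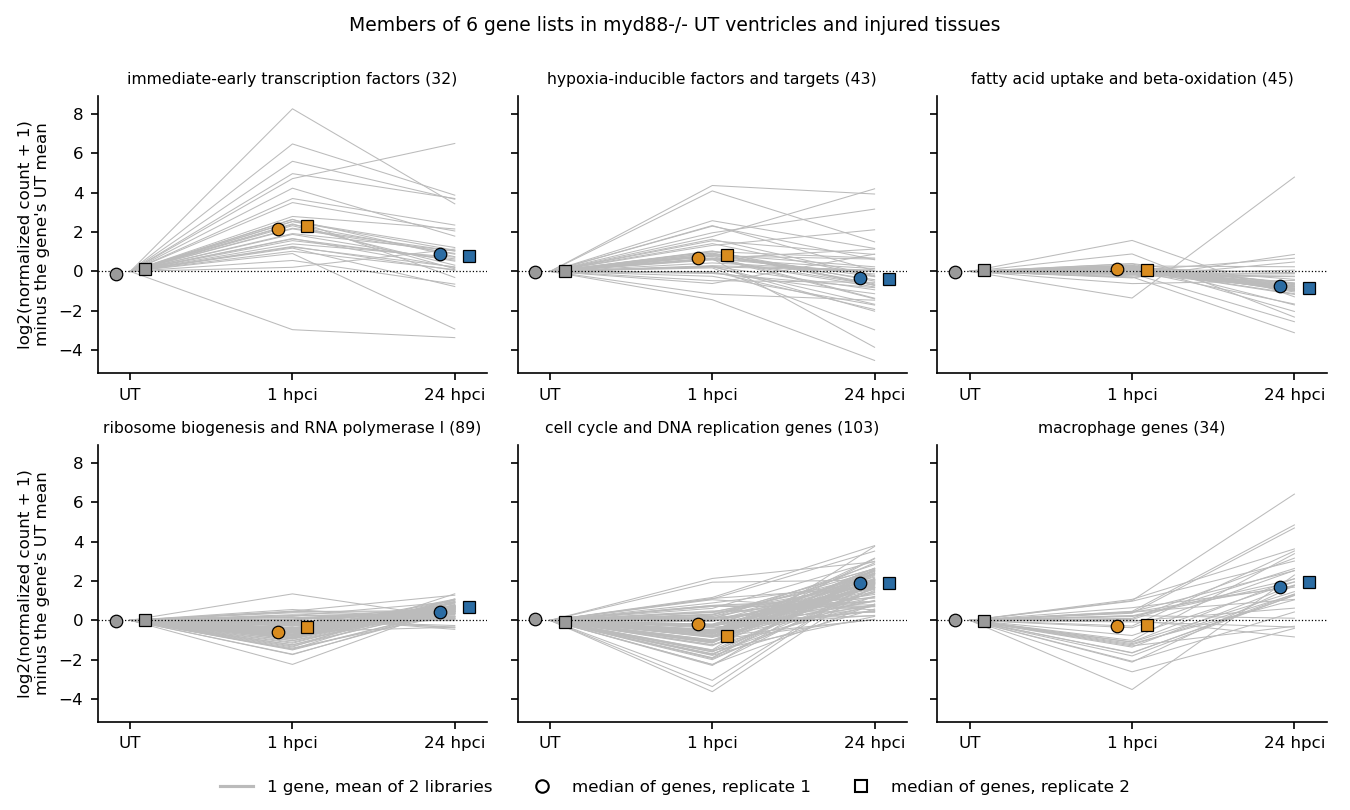
Members of 6 gene lists in myd88-/- tissue as log2(normalized count + 1) minus the UT mean of the gene (vertical axis) in UT ventricles and at 1 and 24 hpci (horizontal axis); grey lines are genes (mean of 2 libraries), and circles and squares are the medians over genes in replicates 1 and 2. Immediate-early genes peak at 1 hpci and stay above UT at 24 hpci in 27 of 32 cases, while 29 of 103 cell cycle genes lie above UT at 1 hpci and all 103 at 24 hpci. UT libraries are of ventricles and the others of injured tissue, so UT is not the same tissue at an earlier time.

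Matrix genes changed in both directions. Of 50 matricellular and other matrix genes 14 rose and 15 fell (higher 11, 9, 9 and 10, lower 11, 15, 18 and 8 without 1 library). Beside fn1a and vcanb, the glycoprotein tenascin C, tnc, had 21 and 7 normalized counts at 1 hpci against 409 and 278 at 24 hpci (log2 change 4.67, and 3.94 without replicate 2 at 1 hpci), osteopontin, spp1, 2 and 5 against 285 and 268 (6.03, SE 0.75), the hyaluronan synthase has2 14 and 9 against 119 and 110 (3.24) and tgfbi 44 and 28 against 404 and 456 (3.57). These are genes of a provisional matrix. The small proteoglycan ogna was the reverse, at 88 and 82 against 7 and 3 (-3.93). Of 40 genes of collagens and their processing 10 rose and 6 fell (higher 7, 8, 7 and 8, lower 4, 6, 6 and 5). The fibril-associated collagen col12a1b had 10 and 7 against 848 and 535 (6.17, SE 0.91) and the collagen chaperone serpinh1b 39 and 34 against 196 and 199 (2.41). The main fibrillar collagens were not called. The gene col1a1a had 1676 and 1307 against 1888 and 1768 (log2 change 0.30, limma adjusted p = 0.306) and col1a2 1299 and 907 against 1585 and 1356 (0.43, 0.195). The hydroxylases plod1a, with 1331 and 1368 against 359 and 367 (-1.89), and p4ha2 (-1.57) fell, as did the basement membrane chain col18a1b, at 451 and 408 against 105 and 33 (-2.84, and -2.02 without replicate 2 at 24 hpci).

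Vessel and epicardial genes were called in both directions, as were all genes tested (18.1% higher and 16.3% lower). In endothelial and endocardial genes the share called higher was near that over all genes, and the share called lower exceeded it. In epicardial genes the share called higher exceeded that over all genes, and the share called lower was below it. For growth factors and receptors the higher share was below and the lower share above those over all genes. Of 56 endothelial and endocardial genes 16 fell and 10 rose (lower 10, 12, 15 and 8, higher 8, 4, 7 and 2 without 1 library). The vascular growth factor receptor flt1 had 1046 and 1233 normalized counts at 1 hpci against 284 and 262 at 24 hpci (log2 change -2.05) and the angiopoietin receptor tek 1371 and 1279 against 475 and 429 (-1.55, SE 0.27). The gene flt4, the receptor of lymphatic and sprouting vessels, had 53 and 13 against 190 and 172 (2.72, and 1.75 without replicate 2 at 1 hpci). In the epicardium, the outer layer of the heart that is activated by injury, 7 of 26 genes rose and 3 fell (higher 4, 5, 5 and 3, lower 1, 2, 2 and 1). The transcription factor wt1b had 22 and 37 against 183 and 216 (2.76, SE 0.42, limma adjusted p = 0.000766), above its UT values of 48 and 47, and the Wnt antagonist frzb 120 and 56 against 12 and 13 (-2.62). Among 69 growth factors and receptors 9 rose and 14 fell (higher 6, 4, 5 and 1 without 1 library). The gene hgfb, a hepatocyte growth factor gene, had 1 and 0 against 60 and 74 (ratio 145, interval 25.8 to 5770), and the fibroblast growth factor gene fgf7 77 and 70 against 12 and 10 (-2.64).

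The change over time was then set beside that in myd88+/+ tissue, which was measured in other libraries. The calls of both genotypes came from 1 model with the same spread for each gene. Their overlap is therefore not one of separately fitted data. There 5793 genes (34.8%) were called, 2805 (16.9%) higher and 2988 (18%) lower, or 1902 when only the 4 wild-type libraries were fitted. Of the genes called in the mutant, 4077 were called in the same direction in the wild type, 71.3% of the mutant calls and 70.4% of the wild-type calls, while 8 were called in opposite directions. Across the 16643 genes, which are not independent, the log2 changes of the genotypes had a Pearson r of 0.81 and a Spearman rho of 0.80. The remaining 1630 mutant calls and 1708 wild-type calls passed in only 1 genotype, which does not show a difference. The difference itself was tested as the mutant change minus the wild-type change, and 3 genes (0.018%) passed, all with the higher change in the mutant, with 991 genes at an unadjusted limma p below 0.05, of which 734 had the higher change in the mutant. The count and the direction depended on the wild-type libraries. Without replicate 2 of myd88+/+ at 24 hpci, which leaves the shallow replicate 1 alone, 905 genes passed, 323 with the higher and 582 with the lower change in the mutant. Without replicate 1 of myd88+/+ at 1 hpci 155 passed, 146 higher and 9 lower. Fast skeletal muscle markers summed to 7325 normalized counts in replicate 2 of myd88+/+ at 1 hpci and to between 820 and 2154 in the other myd88+/+ injured tissues, and their part in the comparison was not tested.

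The clearest of the 3 was alpk2, an alpha kinase gene (chromosome 21, 10866421 to 10880565). In myd88-/- tissue it had 47 and 54 normalized counts in UT ventricles, then 6 and 2 at 1 hpci and 289 and 305 at 24 hpci, a log2 change of 6.02 (SE 0.37, limma adjusted p = 1.45e-05), or 5.41 without replicate 2 at 1 hpci. In myd88+/+ tissue it was already at 762 and 669 at 1 hpci and had 398 and 464 at 24 hpci (log2 change -0.73, limma adjusted p = 0.148). The difference was 6.75 (SE 0.53, 95% confidence interval 5.59 to 7.91, limma adjusted p = 0.00137) and passed without each of the 8 injured tissue libraries in turn. At both times the mutant libraries lay below both wild-type libraries.

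The gene col18a1a, a basement membrane collagen whose fragment is endostatin (chromosome 9, 41821613 to 41979505), had 240 and 201 normalized counts in mutant UT ventricles, then 49 and 67 at 1 hpci and 301 and 372 at 24 hpci, a rise of 2.53 (SE 0.32). In the wild type it had 905 and 428 at 1 hpci and 185 and 222 at 24 hpci, a log2 change of -1.61. The difference of 4.14 (SE 0.45, interval 3.13 to 5.14, limma adjusted p = 0.0202) was not called without any 1 of the mutant libraries (limma adjusted p between 0.068 and 0.132) or without the shallow wild-type library (0.072), nor with only the 8 injured tissue libraries (0.119). The gene oit3, which encodes a secreted protein of the zona pellucida type (chromosome 13, 4685309 to 4707018), had 50 and 21 in mutant UT ventricles, then 0 and 0 at 1 hpci and 89 and 43 at 24 hpci, at least 24.0-fold higher than the floor. In the wild type it had 6 and 2 at 1 hpci and 0 and 0 at 24 hpci. Its difference of 8.17 (SE 0.97, limma adjusted p = 0.029) was not called without any 1 of the mutant libraries (between 0.083 and 0.171), nor without the shallow wild-type library (0.083), in which 3 reads stand for 7.61 normalized counts.

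**Figure D4:**
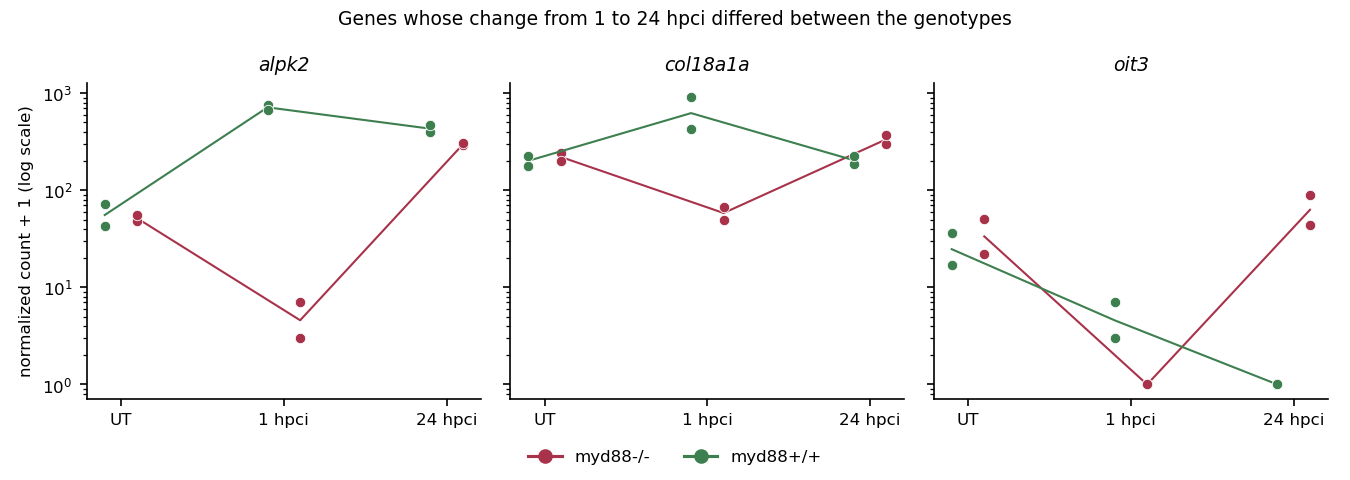
Normalized counts plus 1 (log axis) of the 3 genes whose change from 1 to 24 hpci differed between the genotypes, in UT ventricles and injured tissues of myd88-/- (red) and myd88+/+ (green) fish; points are libraries and lines join the group means on the log scale. At 1 hpci alpk2 sits at 6 and 2 in the mutant and at 762 and 669 in the wild type, and at 24 hpci at 289 and 305 against 398 and 464.

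Further genes missed the threshold for the difference narrowly. One of them, si:ch211-194m7.8, named after its values were seen, had the lower change in the mutant, with 20 and 15 normalized counts against 3 and 5 (log2 change -1.90) and a log2 change of 3.39 in the wild type (difference -5.30, limma adjusted p = 0.0528). The gene crabp2a, a cellular carrier of retinoic acid, had 19 and 24 normalized counts at 1 hpci and 59 and 78 at 24 hpci in the mutant (log2 change 1.62) against 151 and 188 and 74 and 87 in the wild type (-1.06), with a limma adjusted p of 0.0528 for the difference. The gene cryabb, a small heat shock protein, had 6 and 5 against 15 and 20 in the mutant (1.5) and 49 and 50 against 8 and 8 in the wild type (-2.49, limma adjusted p of the difference 0.0528), and without replicate 2 at 24 hpci or at 1 hpci the mutant call was lost (0.092 and 0.053). The periostin gene postnb had 223 and 84 against 297 and 233 in the mutant, not a called change (0.94), and 586 and 472 against 79 and 90 in the wild type (-2.63, limma adjusted p of the difference 0.0688). In the collagen list 14 of 40 members and in the matricellular list 13 of 50 had an unadjusted limma p below 0.05 for the difference, against 5.95% of all genes, and 13 and 13 of these had the higher change in the mutant. The fast skeletal muscle list had 13 of 30, all with the higher change in the mutant. Its medians were -0.46 in the mutant and -4.46 in the wild type, where replicate 2 at 1 hpci had the outlying marker sum. The part of the wild-type replicates in these 3 shares was not tested. The medians of the collagen list were 0.32 in the mutant and -0.51 in the wild type, and those of the matricellular list -0.19 and -0.90. For the macrophage list the medians were 2.57 and 2.05 with 27 members higher in each genotype, and for immediate-early genes -1.34 and -0.99.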

How the data were processed

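RNA from pools of 3 ventricles or injured tissues was sequenced as stranded single-end messenger RNA libraries. The authors used Trimmomatic 0.39 for trimming and STAR 2.7.3a for alignment to danRer11 (Ensembl annotation), removed duplicate, multimapping, ribosomal and mitochondrial reads with Picard 2.21.7, counted exonic reads of single genes with featureCounts 1.6.5 and normalized with DESeq2 1.26.0. The deposited values are a score, namely these normalized counts rounded to whole numbers, so short abundant genes are capped by duplicate removal and tests for read counts were not used.

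The 16643 of 22736 genes whose mean exceeded 5 were fitted as log2(value + 1). The model (limma 3.58.1, R 4.3.3, with trend) had 6 condition means and 6 residual degrees of freedom. Samples were grouped from their labels. Other pseudocounts, filters, scalings, sample sets and thresholds were tried. The genes named are those with the 12 largest rises and falls, the 8 largest gains and losses in count, those differing between genotypes, myd88, cxcl18b and members of 45 lists. Members and lists were chosen with earlier results of these data known, and a few list members were chosen after their values were seen. Leaving out libraries in counts per list was chosen after seeing the data. Depth is an estimate. Sequences were not used. Some genes that the rule selects are not reported here.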

Additional observations from a re-analysis of the deposited data

Results flagged for a closer look

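The change from 1 to 24 hpci differed between the genotypes in 3 genes. The log2 change of alpk2 in myd88-/- tissue exceeded that in myd88+/+ tissue by 6.75 (limma adjusted p = 0.00137), with the mutant libraries higher at 24 than at 1 hpci and the wild-type libraries lower. For col18a1a the difference was 4.14 (limma adjusted p = 0.0202), again with opposite directions in the genotypes. For oit3 it was 8.17 (limma adjusted p = 0.029), with 0 reads in both mutant libraries at 1 hpci and in both wild-type libraries at 24 hpci, so that its size depends on the pseudocount.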

How the results depend on the processing

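The count of genes changed in myd88-/- tissue (5715) was between 4510 and 6826 under the alternatives that kept all libraries of the comparison, namely a pseudocount of 0.5 or 5, unfiltered genes, a minimum mean of 20, trimmed mean scaling, quantile normalization, fits of the 8 injured tissue libraries or of the groups compared, no trend, the replicate block, no fold change threshold and acceptance of adjusted p values under 0.1. Leaving out a library gave 2848 (without 24 hpci replicate 2) to 4234 genes, with 3806 without 1 hpci replicate 1. In myd88+/+ tissue (5793) the count was 1902 with only the groups compared and 4482 to 6660 with a library left out. The 3 differences between genotypes became 7 (5 with the higher and 2 with the lower change in the mutant) at a pseudocount of 5, 6 (4 and 2) under quantile normalization, 1 with the 8 injured tissue libraries, 1 with the replicate block, 11 (9 and 2) when adjusted p values under 0.1 were accepted, and 1 to 905 with a library left out (155 without myd88+/+ 1 hpci replicate 1, 5 without its replicate 2, 905 without myd88+/+ 24 hpci replicate 2). The cause was not tested. With the replicate number as a block the counts were 5531, 5574 and 1. The numbers name different pools, and deviations of same-numbered libraries had an r of 0.28 in each genotype over 2 pairs, so they were not taken as pairs. Of 229 genes named, 220 were called, and none of the 220 changed sign under the alternatives run. Some of these calls were lost when a mutant library was left out. Changes of sign in the genes not called were not counted. With a pseudocount of 5 the difference of oit3 was 4.56 (limma adjusted p = 0.070) and under quantile normalization 6.98 (0.103). With 2 pools per condition and 1 read worth up to 2.54 normalized counts, small changes of scarce genes were not detectable.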

Other observations

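Of 27 prostaglandin and leukotriene genes tested in myd88-/- tissue 4 rose and 8 fell between 1 and 24 hpci. The prostacyclin synthase ptgis had 13 and 18 normalized counts at 1 hpci against 359 and 439 at 24 hpci (log2 change 4.61), and lta4h, the leukotriene A4 hydrolase, 143 and 121 against 341 and 425 (1.53). The cyclooxygenase ptgs1 had 349 and 329 against 140 and 102 (-1.50), the thromboxane synthase tbxas1 331 and 278 against 145 and 121 (-1.19), and hpgd, which degrades prostaglandins, 145 and 70 against 16 and 18 (-2.50). In coagulation the protease gene f10 had 731 and 793 against 154 and 164 (-2.25), tissue factor, f3b, 666 and 701 against 290 and 285 (-1.25), and the plasminogen activator plaua 65 and 41 against 487 and 635 (3.40). Of 15 complement and acute phase genes tested 6 rose and 2 fell. Their median log2 change was -0.06, and 0.27 under quantile normalization. Among those that rose, the complement regulator cfh had 12 and 10 against 216 and 239 (4.25), properdin, cfp, 141 and 111 against 840 and 933 (2.81) and c1s 36 and 29 against 127 and 127 (1.94).

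Of 38 apoptosis and inflammasome genes 7 rose and 7 fell, shares near those over all genes. The inflammasome genes caspa, with 14 and 10 normalized counts against 229 and 295 (log2 change 4.34), and pycard, with 19 and 12 against 95 and 162 (2.96), rose, birc7 was at 0 in both libraries at 1 hpci and had 55 and 65 at 24 hpci, at least 21.9-fold higher, and the caspase inhibitor xiap had 682 and 738 against 311 and 314 (-1.18). Of 35 p53 targets 4 rose and 11 fell, with ccng2 at 650 and 592 against 168 and 175 (-1.85), plk2a at 513 and 455 against 119 and 100 (-2.14) and btg2 at 1347 and 1449 against 503 and 502 (-1.47). In the clock list 2 of 39 rose and 10 fell (higher 1, 1, 1 and 0 without 1 library, in the order 1 hpci replicates 1 and 2 and 24 hpci replicates 1 and 2). The cryptochrome cry3b had 1242 and 1440 against 306 and 253 (-2.26), hlfa 538 and 539 against 143 and 88 (-2.25) and nr1d2a 1433 and 1659 against 607 and 524 (-1.45). The hour of day at sampling is not given in the sources used here, and its part in the clock genes was not tested. For nfil3-5, with 1299 and 1066 against 243 and 244 in the mutant (-2.27) and 220 and 417 against 190 and 427 in the wild type (-0.09), the limma adjusted p of the difference was 0.624.

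Of 26 retinoic acid genes 12 rose and 3 fell (higher 8, 8, 6 and 4, lower 3, 5, 3 and 2 without 1 library). The nuclear receptor rxrga had 103 and 109 against 490 and 552 (2.28), and crabp2a was given above. Of 34 genes of cholesterol synthesis and uptake 10 rose and 0 fell by limma, with 0 lower at an unadjusted p below 0.05 (higher 7, 7, 6 and 4 without 1 library). The gene acat2, of the first step of the pathway, had 41 and 58 against 128 and 173 (1.59), and the endocytic receptor lrp1ab 172 and 105 against 965 and 863 (2.75). Of 37 genes of the oxidative stress response 6 rose (16.2%) and 10 fell (27.0%), against 18.1% and 16.3% of all genes tested. Their median was -0.12, and 0.19 under quantile normalization. The largest rise among them was in the cystine transporter slc7a11, of glutathione supply, with 4 and 11 against 95 and 101 (3.68, and 3.04 without replicate 1 at 1 hpci).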
